A study of Mus musculus with 4 samples.

Results

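Axon guidance ligands and receptors were described across the neuron and progenitor types of the embryonic mouse cortex and compared between genotypes. The genes were chosen by name: every row of the count tables whose symbol began with Sema and a digit, Plxn, Epha, Ephb, Efna, Efnb, Robo, Slit1 to Slit3, Unc5 or Ntn, plus Nrp1, Nrp2, Dcc, Neo1 and Draxin. The rule matched 76 of 33439 named gene rows. Of these, 3 only share the letters (Unc50, a trafficking protein, Unc5cl, a signalling protein, and Plxna4os1, an antisense transcript) and were set aside, which left 73 guidance genes, 38 ligands and 35 receptors. Transmembrane semaphorins and ephrins were counted as ligands, although they can also signal back into the cell that carries them.

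Growing axons and migrating neurons steer by reading ligands on neighbouring cells or in the tissue. Secreted semaphorins bind neuropilins, which act with plexins, while membrane semaphorins bind plexins directly. Slits repel through Robo receptors, netrins attract through DCC and repel through UNC5, and ephrins act by contact on Eph receptors. In the developing cortex these systems guide the radial migration of newborn neurons, the tangential migration of interneurons and the sorting of callosal, corticofugal and thalamic axons.

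The cells came from C57BL/6 mouse cortex at E16.5, as 4 libraries, 2 of genotype HET and 2 of genotype COP1 KO. HET is not defined in the labels. The titles write CKO for the COP1 KO samples and name neither a Cre driver nor the deleted part, so the cells in which the gene was removed are not known here. COP1 binds the substrates of a ubiquitin ligase, among them c-JUN and ETS factors, which are then degraded. Transcripts were read as 3′ tags from droplets. The labels give no litter or batch, so p-values measure only the spread between these libraries.

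The tables held 19237 cell barcodes, of which 181 were found in 2 or more libraries, and 28049007 to 28988265 counts per library. After filtering, 18781 cells remained (4317 to 5192 per library, with median depths of 4431 to 5390 counts per cell). Xist and Y-linked counts gave 1 female and 1 male library in either genotype. COP1 KO replicate 1 stood apart: its level of 339 of 7500 genes differed by over 0.5 (log2) from the average of the rest, against 69 to 113 genes for each of the others, and these included 3 of 32 guidance genes against 0 in each of the others. The targeted gene, listed as Rfwd2, had 32.4 and 39.7 CPM (counts scaled to a common library size) in HET and 31.0 and 30.1 CPM in COP1 KO (log2 difference −0.21, SE 0.113, edgeR adjusted p = 0.534). By class its unadjusted p was smallest, without overlap of the groups, in intermediate-progenitor-like cells (38.3 and 43.2 CPM in HET, 22.7 and 26.6 CPM in COP1 KO; −0.69, edgeR adjusted p = 0.379) and in eminence-progenitor-like cells (41.0 and 39.3 CPM, 20.4 and 18.9 CPM; −0.98, edgeR adjusted p = 0.361), and it passed in no class. Where its 3′ tags lie relative to the deleted part is not known here, so these values do not settle the genotype labels.

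Cells were clustered with all 76 rows left out, so that no guidance gene chose a class, and clusters were called after a cell type by marker genes. The neuron and progenitor classes were radial-glia-like (1280 cells), intermediate-progenitor-like (945), excitatory-neuron-like (9775), Cajal-Retzius-like (252), cortical-interneuron-like (1669), striatal-projection-neuron-like (1695), ganglionic-eminence-progenitor-like (574) and oligodendrocyte-precursor-like cells (326). Excitatory-neuron-like cells were divided into newborn-like (1219), upper-layer-like (2685), layer-5-like (1559) and layer-6-like cells (1799), and 2 clusters whose layer the markers did not name: cluster 3, led by Fam19a1 and Tfap2d, and cluster 7, led by genes that include Crym and Cck. The labels name cortex, yet striatal-like and eminence-like cells, types of the ventral forebrain, were among the cells. Counts were summed per library and class and are given as CPM of that sum. In such sums, fewer cells with a transcript and fewer transcripts per cell cannot be told apart.

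The 73 guidance genes together made up 2442 to 2654 CPM of a library. Single genes ranged from 4 counts (Epha1) to 28725 counts over all libraries, with a median of 1682 counts. Of the 73 genes, 9 had under 100 counts in all (Epha1, Epha2, Epha10, Plxnb3, Ntn4, Ntn5, Ntng2, Robo3 and Sema3g), too few to describe by class. The summed guidance level was highest in newborn-like neurons at 4424 CPM ± 108 (SD, n = 4) and in cluster 7 at 3974 CPM ± 175 (SD, n = 4). In cluster 7, Nrp1 alone made up 1349 CPM of the sum. Cluster 3 held 3189 CPM ± 100 and upper-layer-like neurons 3106 CPM ± 21 (SD, n = 4 each). The summed level was 1673 CPM ± 110 (SD, n = 4) in radial-glia-like, 2442 CPM ± 93.4 in intermediate-progenitor-like and 1611 CPM ± 78.3 in eminence-progenitor-like cells (SD, n = 4 each). Newborn-like neurons thus carried a higher guidance level than the progenitors before them, in every library, and more than the layer-5-like (2092 CPM ± 50.2) and layer-6-like neurons (2045 CPM ± 58.3; SD, n = 4 each).

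**Figure D1:**
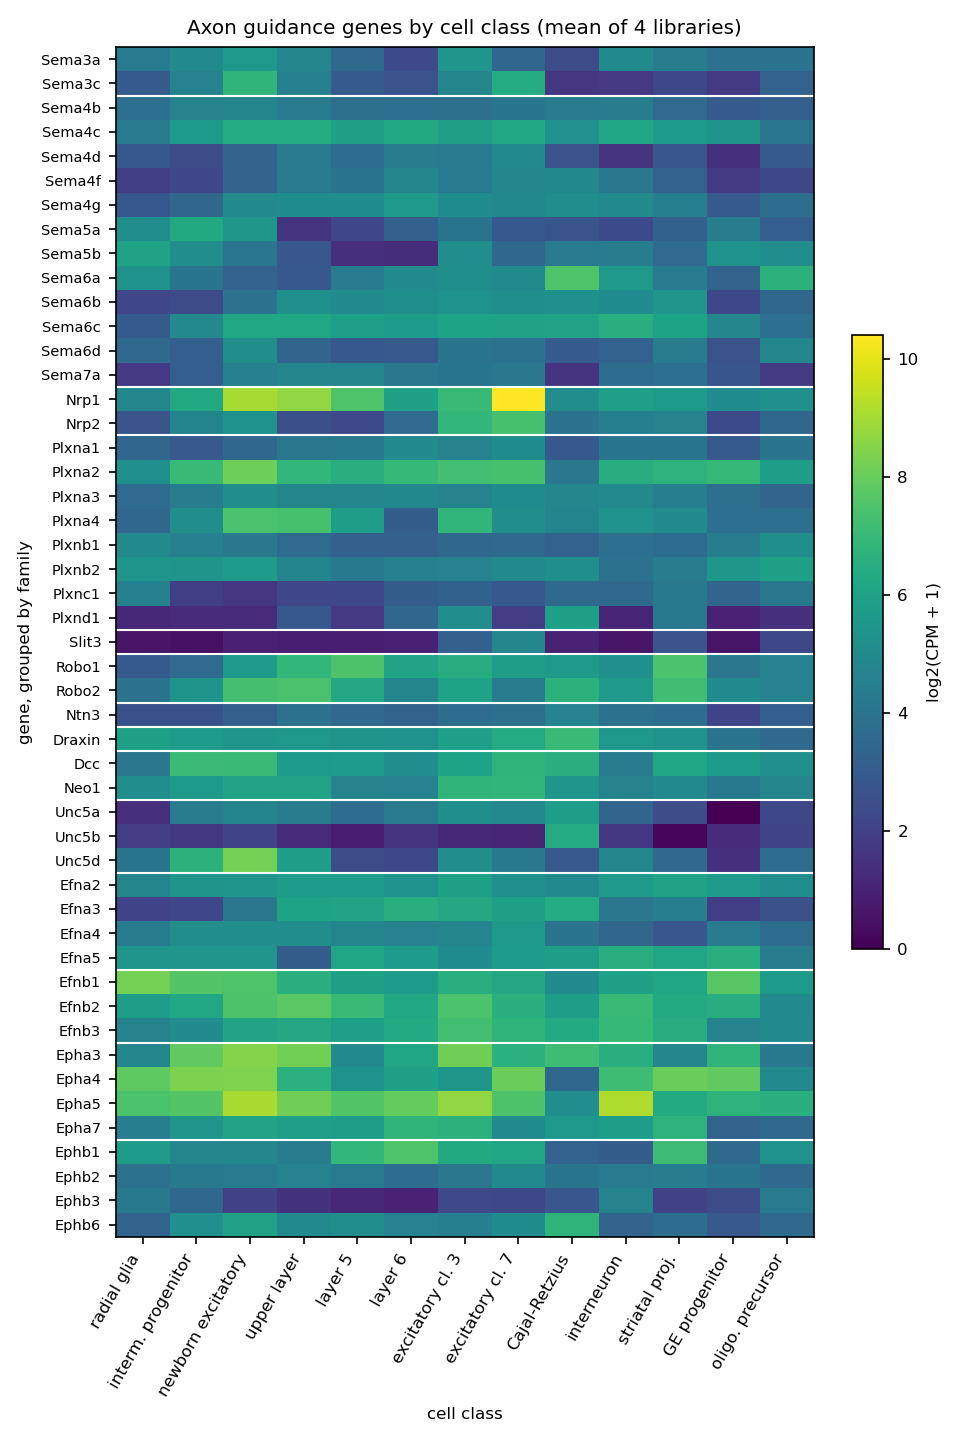
Mean level over 4 libraries, as log2(CPM + 1), of the guidance genes with 20 CPM or more in at least 1 of 13 classes (columns). White lines part gene families. Newborn-like neurons hold the highest level of 11 of these 49 genes, and Nrp1 in cluster 7 is the brightest cell at 1349 CPM.

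Of the 73 genes, 49 reached a mean of 20 CPM in at least 1 of 13 classes. Newborn-like neurons had the highest mean of 11 of them (Epha3, Epha4, Plxna2, Plxna3, Plxna4, Sema3a, Sema3c, Sema4b, Sema4c, Sema6d and Unc5d). Cluster 7 and Cajal-Retzius-like cells had the highest mean of 8 each, layer-6-like neurons and interneuron-like cells of 4 each, and eminence-progenitor-like cells of none. For 19 of the 49 genes the leading class lay above the next class in every library. For the other genes the first and second class overlapped, as for Dcc, at 135 CPM ± 24.5 in intermediate-progenitor-like and 132 CPM ± 13.1 in newborn-like cells (SD, n = 4 each).

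Among ligands, the ephrin-Bs led most classes. Ephrin-B1 (Efnb1), a membrane ligand of EphB receptors, was highest in radial-glia-like cells at 343 and 319 CPM in HET and 276 and 246 CPM in COP1 KO, and it was also the leading ligand of intermediate-progenitor-like cells (194 CPM ± 13.6), newborn-like neurons (187 CPM ± 19.7) and eminence-progenitor-like cells (206 CPM ± 26.7; SD, n = 4 each). In more mature neurons it gave way to the other ephrin-Bs. Efnb2 was the leading ligand of upper-layer-like (211 CPM ± 47.0), layer-5-like (127 CPM ± 35.2) and interneuron-like cells (129 CPM ± 27.2; SD, n = 4 each), and Efnb3 of striatal-like cells (88.4 CPM ± 7.71) and cluster 7 (108 CPM ± 3.71; SD, n = 4 each). Efnb3 was higher still, at 313 CPM ± 6.99 and 314 CPM ± 29.0 (SD, n = 4 each), in the unnamed clusters 10 (led by Snhg11 and Nts) and 19 (led by Lhx8 and Nkx2-1). Layer-6-like neurons were led by the glycolipid-anchored ephrin-A3 (Efna3, 91.6 CPM ± 4.04; SD, n = 4).

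Semaphorins were divided among classes. Summed over 20 genes they held 369 CPM in the whole library, against 311 CPM for the ephrin-Bs. The transmembrane Sema5b was highest in radial-glia-like cells (62.9 CPM ± 12.9), its relative Sema5a in intermediate-progenitor-like cells (79.2 CPM ± 5.82) and the secreted Sema3c in newborn-like neurons (109.6 CPM ± 25.1; SD, n = 4 each). Sema6a, which binds plexin-A2 and plexin-A4, led in Cajal-Retzius-like cells at 205 and 209 CPM in HET and 151 and 162 CPM in COP1 KO, and in oligodendrocyte-precursor-like cells at 126, 139, 46.7 and 95.1 CPM. Each of these 4 semaphorins thus peaked in another class. Draxin, a secreted repellent that binds DCC, was second among the ligands of Cajal-Retzius-like cells at 131 CPM ± 20.6 (SD, n = 4) and the third in radial-glia-like cells at 59.6 CPM ± 14.1 (SD, n = 4). Slits and netrins were low throughout: the 3 Slits summed to 6.85 CPM (upper-layer-like) to 39.0 CPM (cluster 7) and the 6 netrins to 9.99 CPM (intermediate-progenitor-like) to 42.9 CPM (oligodendrocyte-precursor-like).

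Among receptors, the EphA family had the highest summed level in the whole library (569 CPM), although neuropilins were higher in cluster 7 (1515 against 587 CPM) and plexins in oligodendrocyte-precursor-like cells (206 against 157 CPM). Its summed level was 1288 CPM ± 43.3 in newborn-like neurons, 869 CPM ± 77.6 in interneuron-like cells, 448 CPM ± 19.4 in radial-glia-like cells and 157 CPM ± 15.4 in oligodendrocyte-precursor-like cells (SD, n = 4 each). EphA5, a receptor of ephrin-As, was the leading receptor of interneuron-like cells at 509.5 and 613 CPM in HET and 609 and 564 CPM in COP1 KO. It was as high in newborn-like neurons (535 CPM ± 28.4; SD, n = 4), where the libraries overlapped those of interneuron-like cells. EphA4, which binds ephrins of both types, was the leading receptor of radial-glia-like (224 CPM ± 43.5), intermediate-progenitor-like (322 CPM ± 41.3), striatal-like (265 CPM ± 15.7) and eminence-progenitor-like cells (232 CPM ± 24.1; SD, n = 4 each). Cajal-Retzius-like cells held 10.4 CPM ± 6.62 (SD, n = 4) of it.

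Neuropilin-1 (Nrp1), the binding subunit for Sema3A and Sema3C and for VEGF, was the most abundant guidance transcript of any class. It reached 1436 and 1366 CPM in HET and 1302 and 1294 CPM in COP1 KO in cluster 7, and 415 CPM ± 41.0 (SD, n = 4) in upper-layer-like neurons. The 2 clusters within the upper-layer-like class were far apart: cluster 2 (whose leading genes include Pdzrn3 and Pou3f2) held 793 CPM ± 101 and cluster 6 (led by Inhba and Syt4) 110.1 CPM ± 21.2 (SD, n = 4 each). The mean for the class is therefore not a level that either cluster had. Neuropilin-2 (Nrp2) was also highest in cluster 7 (166 CPM ± 13.7) and cluster 3 (117 CPM ± 10.1), against 3.85 CPM ± 0.787 in layer-5-like neurons (SD, n = 4 each). Cluster 7 further held Slit3 at 27.4 CPM ± 4.45 (SD, n = 4), above the second class, cluster 3, at 8.01 CPM ± 1.51 (SD, n = 4) in every library.

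The summed Robo level was highest in striatal-like cells (321 CPM) and upper-layer-like neurons (288 CPM), and was 149 CPM in Cajal-Retzius-like cells and 73.6 CPM in cluster 7. Robo1 was 179 CPM ± 10.9 in layer-5-like and 174 CPM ± 14.2 in striatal-like cells (SD, n = 4 each), and the libraries of the 2 classes overlapped. Robo2 was 170.2 CPM ± 12 in upper-layer-like and 159 CPM ± 11.5 in newborn-like neurons (SD, n = 4 each). Both were at most 14.4 CPM in radial-glia-like cells by the mean. Cajal-Retzius-like cells, which cover the cortical surface, had 4 receptors that led there: Ephb6 (108 CPM ± 12.1), Unc5b (83.6 CPM ± 15.3), Plxnd1 (59.9 CPM ± 15.4) and Unc5a (54.1 CPM ± 20.8; SD, n = 4 each). Unc5b was at most 3.29 CPM by the mean in the other 12 classes. Outside the neural classes, endothelial-like cells held Robo4 at 119 CPM ± 10.7 and Plxnd1 at 174 CPM ± 66.2 (SD, n = 4 each).

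Means (± SD, n = 4 libraries) place each class by its most abundant guidance genes. In radial-glia-like cells the leading ligands were Efnb1 (296 ± 43.5 CPM), Sema5b (62.9 ± 12.9 CPM) and Draxin (59.6 ± 14.1 CPM) and the leading receptors Epha4 (224 ± 43.5 CPM), Epha5 (175 ± 34.6 CPM) and Ephb1 (51.6 ± 6.62 CPM). The leading ligands of intermediate-progenitor-like cells were Efnb1 (194 ± 13.6 CPM), Sema5a (79.2 ± 5.82 CPM) and Efnb2 (73.5 ± 14.3 CPM), and the receptors Epha4 (322 ± 41.3 CPM), Epha3 (234 ± 17.3 CPM) and Epha5 (193 ± 22.6 CPM). Newborn-like neurons were led by the ligands Efnb1 (187 ± 19.7 CPM), Efnb2 (178 ± 47.5 CPM) and Sema3c (109.6 ± 25.1 CPM) and by the receptors Epha5 (535 ± 28.4 CPM), Nrp1 (532 ± 111 CPM) and Epha3 (354 ± 27.4 CPM). Progenitors and newborn-like neurons thus shared Efnb1 among their leading ligands and EphA receptors among their leading receptors. Neither was particular to them. Efnb1 was also a leading ligand of upper-layer-like, striatal-like and oligodendrocyte-precursor-like cells and cluster 3, and every class had an EphA receptor among its leading receptors. In upper-layer-like neurons the leading ligands were Efnb2 (211 ± 47 CPM), Efnb1 (96 ± 5.74 CPM) and Sema4c (83.1 ± 7.47 CPM) and the leading receptors Nrp1 (415 ± 41 CPM), Epha3 (288 ± 18.6 CPM) and Epha5 (285 ± 37 CPM). The leading ligands of layer-5-like neurons were Efnb2 (127 ± 35.2 CPM), Efna5 (69.4 ± 8.86 CPM) and Efna3 (66 ± 4.38 CPM), and the receptors Epha5 (187 ± 23.7 CPM), Nrp1 (187 ± 29.2 CPM) and Robo1 (179 ± 10.9 CPM). Layer-6-like neurons were led by the ligands Efna3 (91.6 ± 4.04 CPM), Efnb3 (81.1 ± 7.44 CPM) and Sema4c (77.9 ± 9.26 CPM) and by the receptors Epha5 (243 ± 13.8 CPM), Ephb1 (183 ± 16.9 CPM) and Plxna2 (126 ± 12 CPM). Epha5 was among the leading receptors of all 3 layer classes, and of every other class but Cajal-Retzius-like, striatal-like and eminence-progenitor-like cells. In cluster 3 the leading ligands were Efnb2 (174 ± 34.2 CPM), Efnb3 (153 ± 18.1 CPM) and Efnb1 (92 ± 9 CPM) and the leading receptors Epha5 (424 ± 55.5 CPM), Epha3 (279.6 ± 14 CPM) and Plxna2 (155 ± 18.1 CPM). In cluster 7 the leading ligands were Efnb3 (108 ± 3.71 CPM), Efnb2 (96.4 ± 27.4 CPM) and Sema3c (86.5 ± 20.1 CPM) and the leading receptors Nrp1 (1349 ± 65.8 CPM), Epha4 (268 ± 29.5 CPM) and Epha5 (182 ± 18.1 CPM). Both excitatory clusters had Efnb2 and Efnb3 among their leading ligands. Cajal-Retzius-like cells were led by the ligands Sema6a (182 ± 29.5 CPM), Draxin (131 ± 20.6 CPM) and Efna3 (82.7 ± 19.3 CPM) and by the receptors Epha3 (143 ± 24.6 CPM), Ephb6 (108 ± 12.1 CPM) and Robo2 (101 ± 16.1 CPM). In interneuron-like cells the leading ligands were Efnb2 (129 ± 27.2 CPM), Efnb3 (126 ± 14.3 CPM) and Efna5 (94.6 ± 11.7 CPM) and the leading receptors Epha5 (574 ± 48.1 CPM), Epha4 (144 ± 26.8 CPM) and Epha3 (91 ± 12 CPM). The leading ligands of striatal-like cells were Efnb3 (88.4 ± 7.71 CPM), Efnb2 (81.5 ± 23.4 CPM) and Efnb1 (71 ± 7.81 CPM), and the receptors Epha4 (265 ± 15.7 CPM), Robo1 (174 ± 14.2 CPM) and Robo2 (147 ± 17.4 CPM). Eminence-progenitor-like cells were led by the ligands Efnb1 (206 ± 26.7 CPM), Efna5 (93.2 ± 14.5 CPM) and Efnb2 (88.4 ± 20.1 CPM) and by the receptors Epha4 (232 ± 24.1 CPM), Plxna2 (119 ± 7.01 CPM) and Epha3 (107 ± 39.5 CPM). In oligodendrocyte-precursor-like cells the leading ligands were Sema6a (102 ± 41.1 CPM), Efnb1 (49.8 ± 12.9 CPM) and Sema5b (33.5 ± 12.1 CPM) and the leading receptors Epha5 (97.3 ± 6.79 CPM), Plxnb2 (58.6 ± 33.9 CPM) and Plxna2 (54.7 ± 24.9 CPM). The last class had 35 and 36 cells in HET and 111 and 144 cells in COP1 KO libraries. In it, radial glia markers summed to 21550 to 26490 CPM and precursor markers to 2800 to 3125 CPM. Choroid plexus markers were at 63910 CPM in HET replicate 1 and 10490 CPM in COP1 KO replicate 2, against 20.36 and 20.01 CPM in HET replicate 2 and COP1 KO replicate 1. Dividing markers were at 1290 and 2040 CPM in HET and 3561 and 3626 CPM in COP1 KO (10 of 10 higher). The part of these in the levels of the class was not tested.

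The class contrasts asked which guidance genes differ between a progenitor and its progeny and between kinds of neuron, with the library as a block and both genotypes together. From radial-glia-like to intermediate-progenitor-like cells the direction was mostly upward. Of 55 guidance genes tested, 36 passed the edgeR quasi-likelihood test at an adjusted p under 0.05, 26 higher in intermediate-progenitor-like and 10 higher in radial-glia-like cells, where 45.8% of all genes passed (21.9% higher in intermediate-progenitor-like and 23.8% in radial-glia-like cells). Their median log2 difference (radial glia minus intermediate progenitor) was −0.36, against 0.01 over all 11915 genes. All 4 called members of the DCC and UNC5 families (Dcc, Neo1, Unc5a and Unc5d) and all 5 called neuropilins and A-type plexins (Nrp1, Nrp2, Plxna2, Plxna3 and Plxna4) were higher in intermediate-progenitor-like cells.

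The 4 largest differences among genes with 20 CPM or more in every library of the higher class were all in receptors. Epha3 rose from 26.0 CPM ± 4.87 to 234 CPM ± 17.3 (SD, n = 4 each; log2 difference −3.14, SE 0.131, edgeR adjusted p = 5.32e-23). Dcc, the netrin receptor, rose from 16.2 CPM ± 2.53 to 135 CPM ± 24.5 (SD, n = 4 each; −3.04, SE 0.14, edgeR adjusted p = 1.58e-21). Unc5d, which mediates repulsion and binds FLRT2, rose from 10.5, 10.2, 22.1 and 19.7 CPM to 106, 93.4, 105 and 106 CPM (−2.69, SE 0.162, edgeR adjusted p = 9.98e-18). In none of these did libraries of the 2 classes overlap. Nrp2 rose from 5.68 CPM ± 1.63 to 25.1 CPM ± 5.37 (SD, n = 4 each; −2.11, SE 0.253, edgeR adjusted p = 3.41e-09). Ligands and receptors higher in radial-glia-like cells included Efnb1 (log2 difference 0.62, SE 0.0756), Sema5b (0.90, SE 0.159), Ephb1 (0.99, SE 0.152), Plxnc1 (3.10, SE 0.366) and the netrins Ntn1 (2.70, SE 0.526) and Ntng1 (2.82, SE 0.462). The last 3 rest on low levels, 22.9, 12.1 and 13.0 CPM by the mean in radial-glia-like cells.

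Between intermediate-progenitor-like and excitatory-neuron-like cells, 45 of 55 guidance genes passed, 31 higher in neurons and 14 in progenitors, with 68.3% of all genes passing (32.2% higher in neurons and 36.1% in progenitors). The median log2 difference (progenitor minus neuron) was −0.62, against 0.05 over all genes. Ephrin-A3 (Efna3) was 3.65 CPM ± 0.746 in progenitors and 66.8 CPM ± 3.14 in neurons (SD, n = 4 each; −4.30, SE 0.218, edgeR adjusted p = 8.97e-21). Robo1 was 11.5 CPM ± 3.22 and 102 CPM ± 8.75 (SD, n = 4 each; −3.29, SE 0.139, edgeR adjusted p = 2.05e-23), and the membrane ligand Sema6b 4.16 CPM ± 1.58 and 33.6 CPM ± 4.14 (SD, n = 4 each; −3.09, SE 0.214, edgeR adjusted p = 2.53e-16). Sema5a went the other way. It had 75.1, 78.0, 87.8 and 76.1 CPM in progenitors and 9.80, 9.50, 7.75 and 9.39 CPM in neurons (3.0, SE 0.191, edgeR adjusted p = 1.86e-17). Dcc (0.96, SE 0.0942) and Unc5d (1.05, SE 0.113) were also higher in progenitors than in excitatory-neuron-like cells as a whole, although the newborn-like neurons within that class had Unc5d at 294 CPM ± 45.9 (SD, n = 4).

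**Figure D2:**
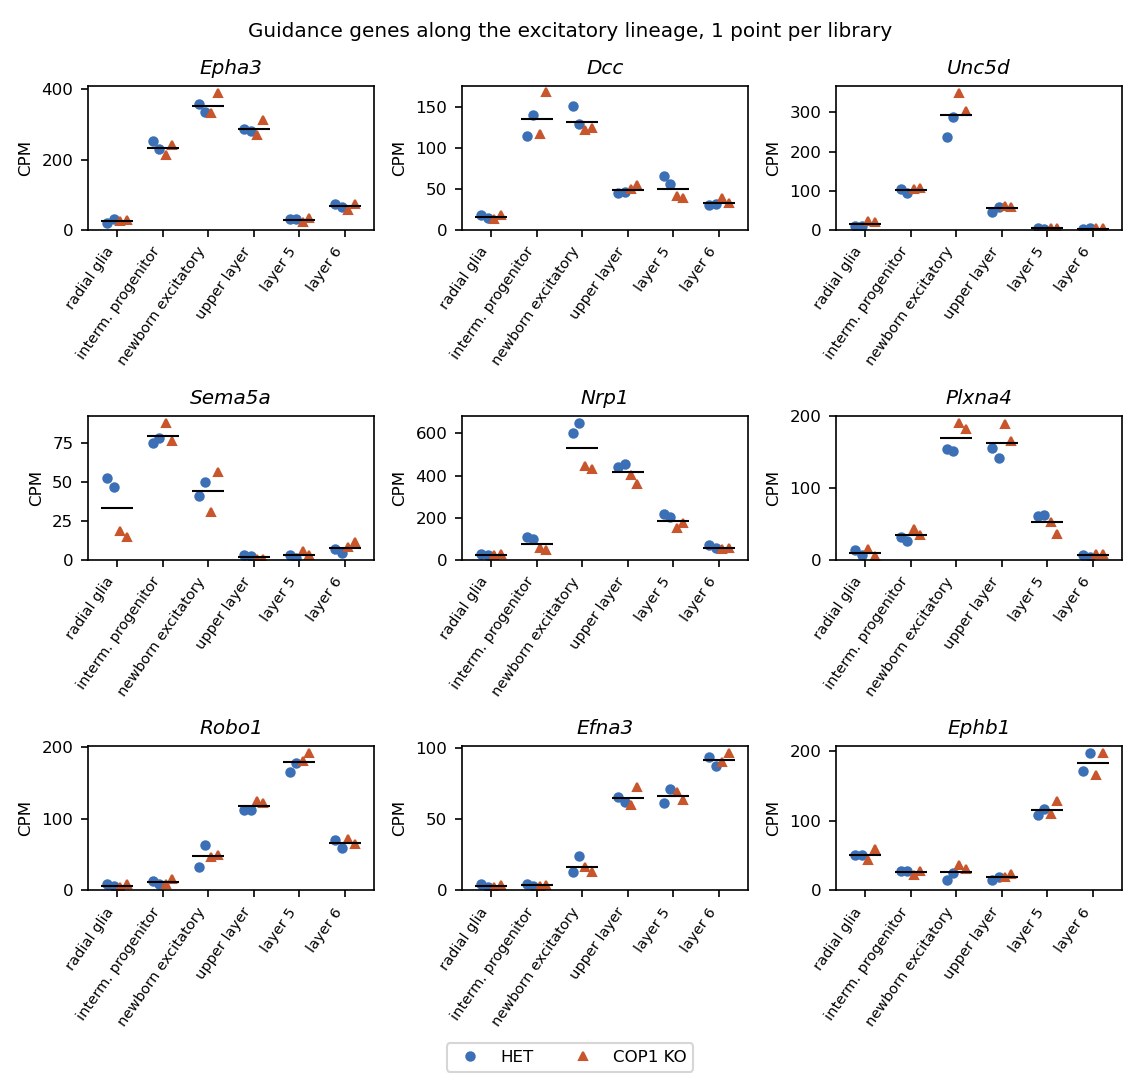
CPM of 9 guidance genes in radial-glia-like, intermediate-progenitor-like and 4 excitatory classes; each point is 1 library (circles HET, triangles COP1 KO) and bars are means of 4. Epha3, Dcc and Unc5d are low in radial-glia-like cells and high in intermediate-progenitor-like and newborn-like cells, while Robo1, Efna3 and Ephb1 are highest in layer-5-like or layer-6-like neurons.

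Upper-layer-like neurons were compared with layer-5-like and layer-6-like neurons together. Of 56 guidance genes tested, 36 passed, 26 higher in upper-layer-like and 10 higher in deep-layer-like neurons, with 45.1% of all genes passing (22.4% and 22.7%). Of the called receptors, 13 were higher in upper-layer-like neurons and 3 lower, and of the called ligands 13 were higher and 7 lower. The median log2 difference (upper minus deep) was 0.28, against 0.01 over all 12128 genes. All 4 called genes of the DCC and UNC5 families (Neo1, Unc5a, Unc5c and Unc5d) were higher in upper-layer-like neurons.

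Unc5d had 46.5, 58.3, 61.4 and 58.0 CPM in upper-layer-like and 2.88, 3.38, 5.35 and 4.60 CPM in deep-layer-like neurons (3.73, SE 0.141, edgeR adjusted p = 3.33e-29). Plexin-A4 (Plxna4), a partner of neuropilins, had 164 CPM ± 19.7 and 31.6 CPM ± 4.76 (SD, n = 4 each; 3.0, SE 0.111, edgeR adjusted p = 1.20e-29). Within the deep classes, Plxna4 was 53.5 CPM ± 12 in layer-5-like and 7.33 CPM ± 2.17 in layer-6-like neurons (SD, n = 4 each). Ephrin-A5 (Efna5) was the reverse, with 7.40 CPM ± 1.31 in upper-layer-like and 61.7 CPM ± 7.07 in deep-layer-like neurons (SD, n = 4 each; −3.07, SE 0.168, edgeR adjusted p = 3.81e-22). EphB1 (Ephb1), a receptor of ephrin-Bs, had 19.4 CPM ± 4.04 and 148 CPM ± 9.93 (SD, n = 4 each; −2.96, SE 0.101, edgeR adjusted p = 5.70e-31). The ligand Efnb2 was higher in upper-layer-like neurons (211 CPM ± 47.0 against 102 CPM ± 26.0; SD, n = 4 each; 1.09, SE 0.0592), while Ephb1 was lower there, and Epha3, which binds ephrin-A5, was higher where Efna5 was low (288 CPM ± 18.6 against 47.4 CPM ± 5.46; SD, n = 4 each; 2.65, SE 0.0794). Other called Eph receptors went both ways. Epha4 (0.99) and Epha5 (0.38) were also higher in upper-layer-like neurons, while Epha7 (−0.51) was lower there, as was Efna5. Ephb2 (0.63) and Ephb4 (2.065, at 1.72 CPM by the mean) were higher there, as was Efnb2. Robo1 did not pass between the layers (0.07, SE 0.069, edgeR adjusted p = 0.443).

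**Figure D3:**
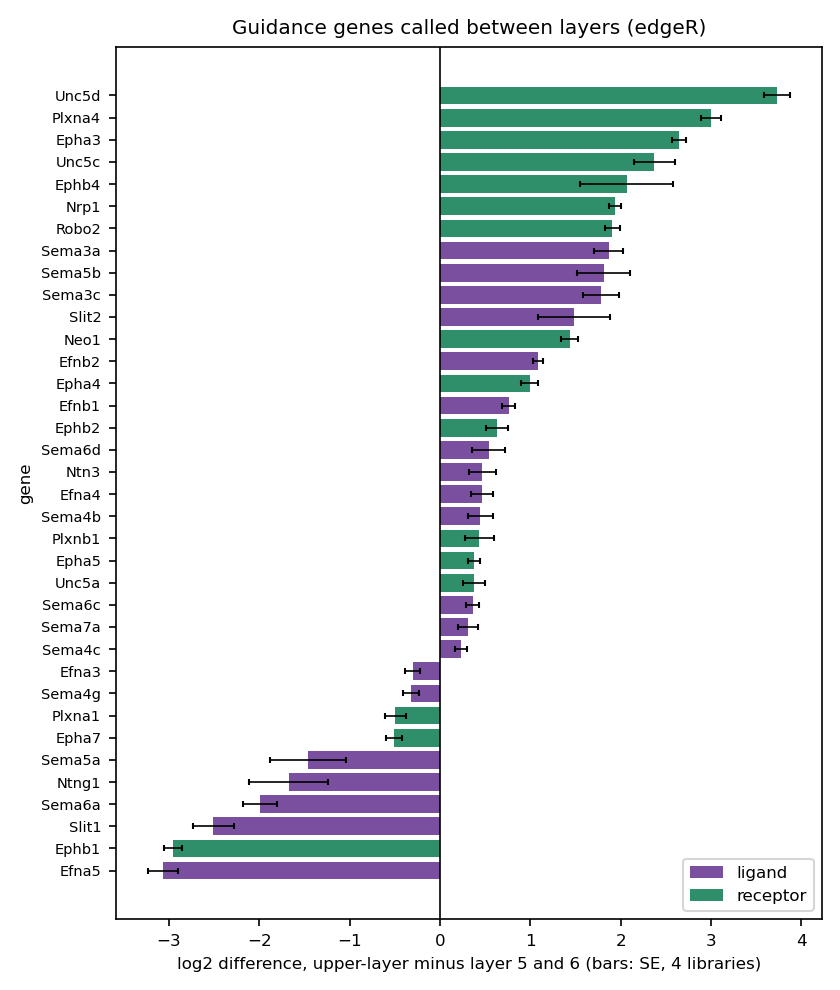
The 36 guidance genes that passed between upper-layer-like and deep-layer-like neurons; bars give the log2 difference and lines its SE over 4 libraries, violet for ligands and green for receptors. Unc5d (3.73) and Plxna4 (3.0) extend farthest to the right, and Efna5 (−3.07) and Ephb1 (−2.96) farthest to the left.

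Interneurons of the cortex are born in the ventral forebrain and migrate into it, so their guidance genes were compared with those of excitatory neurons and of other ventral cells. Between cortical-interneuron-like and excitatory-neuron-like cells, 39 of 55 guidance genes passed, 13 higher and 26 lower in interneuron-like cells, with 37.9% of all genes passing (18.1% and 19.8%). Of 10 tested plexins and neuropilins, 7 were lower, among them Nrp1 at 56.9 CPM ± 10.8 against 415 CPM ± 47.0 (SD, n = 4 each; −2.89, SE 0.0996, edgeR adjusted p = 5.74e-26). Its ligand Sema3c had 3.60, 3.17, 0 and 2.31 CPM in interneuron-like cells and 33.0 CPM ± 7.2 (SD, n = 4) in excitatory-neuron-like cells (−3.82, SE 0.334, edgeR adjusted p = 1.06e-12). Ephb1 was lower as well, at 7.28 CPM ± 3.05 against 85.0 CPM ± 5.51 (SD, n = 4 each; −3.54, SE 0.168, edgeR adjusted p = 3.99e-21). Ephb3, another receptor of ephrin-Bs, was higher, at 23.9 CPM ± 3.97 against 2.24 CPM ± 0.923 (SD, n = 4 each; 3.38, SE 0.209, edgeR adjusted p = 2.73e-17). Epha5 (1.02, SE 0.0750) and its ligand Efna5 (1.18, SE 0.123) were both higher in interneuron-like cells. The excitatory-neuron-like means cover unlike classes. Layer-6-like neurons had 71.4 CPM of the 2 neuropilins together, against 78.5 CPM in interneuron-like cells. Sema3c was at 6.27 CPM in deep-layer-like and Ephb1 at 19.4 CPM in upper-layer-like neurons.

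Striatal-projection-neuron-like cells share a ventral origin with interneurons but differed from them in Eph and Robo receptors. Of 55 guidance genes, 32 passed, 13 higher and 19 lower in striatal-like cells, with 29.6% of all genes passing (14.4% and 15.2%). Ephb1 had 152, 140, 125 and 140 CPM in striatal-like and 7.80, 7.13, 3.39 and 10.8 CPM in interneuron-like cells (4.25, SE 0.170, edgeR adjusted p = 2.88e-23). Ephb3 took the other direction (3.16 CPM ± 1.01 against 23.9 CPM ± 3.97; SD, n = 4 each; −2.90, SE 0.287, edgeR adjusted p = 6.02e-11). Ephb2 (19.7 against 18.0 CPM, edgeR adjusted p = 0.664) and Ephb6 (12.7 against 8.92 CPM, edgeR adjusted p = 0.126) did not pass. Epha5 was lower in striatal-like cells (81.5 CPM ± 12.1 against 574 CPM ± 48.1; SD, n = 4 each; −2.80, SE 0.0955, edgeR adjusted p = 1.12e-25) and Robo1 higher (174 CPM ± 14.2 against 36.0 CPM ± 1.42; SD, n = 4 each; 2.29, SE 0.108, edgeR adjusted p = 7.00e-21). All 4 UNC5 genes were lower in striatal-like cells, at low levels. By the mean, Unc5a was at 4.43 against 9.55 CPM, Unc5c at 1.03 against 14.5 CPM and Unc5d at 11.1 against 25.5 CPM. Unc5b, at 0.144 against 2.24 CPM, rests on very few counts. Within the striatal-like class, the cluster led by Isl1, Ebf1 and Tac1, genes of direct-pathway neurons, had Ephb1 at 173 CPM ± 15.2 (SD, n = 4).

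Eminence-progenitor-like cells, a cluster led by Top2a and Dlx2, held less of most guidance transcripts than interneuron-like cells. Of 55 guidance genes, 39 passed, 28 lower and 11 higher in the progenitors, with 58.9% of all genes passing (29.5% and 29.4%) and a median log2 difference of −0.63 against −0.01 over all genes. Sema6b (3.79 CPM ± 1.31 against 32.6 CPM ± 7.28; SD, n = 4 each; −3.01, SE 0.312, edgeR adjusted p = 5.36e-11) and Epha7 (8.80 CPM ± 5.23 against 55.5 CPM ± 8.97; SD, n = 4 each; −2.69, SE 0.230, edgeR adjusted p = 2.70e-13) differed most among called genes with 20 CPM or more in every library of the higher class. Epha5 (−2.44, SE 0.108, edgeR adjusted p = 2.41e-22) and Ephb3 (−2.52, SE 0.356, edgeR adjusted p = 7.79e-08) were lower too. Efnb1, Efna4, Epha4, Ephb4, Sema5a, Sema5b, Plxna2, Plxnb2, Dcc, Slit1 and Slit2 were the 11 that were higher.

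Guidance receptors act through the cytoskeleton, and 74 other genes of the pathway were followed beside them: among them collapsin response mediators, kinases, cytoskeletal effectors and co-receptors. From intermediate-progenitor-like to excitatory-neuron-like cells, 47 of 71 tested were higher in neurons and 13 lower, where 32.2% and 36.1% of all genes were (median log2 difference, progenitor minus neuron, −0.70). Between radial-glia-like and intermediate-progenitor-like cells they were divided, with 22 higher and 24 lower of 71 in radial-glia-like cells, against 23.8% and 21.9% of all genes. Between upper-layer-like and deep-layer-like neurons, 14 of 72 were higher and 24 lower in upper-layer-like neurons (median −0.00), against 22.4% and 22.7% of all genes.

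The genotype comparison asked whether COP1 KO changes guidance genes, in the whole library and in each class. In radial-glia-like cells 3 guidance genes changed: the semaphorin Sema5a fell, and ephrin-A5 (Efna5) and its receptor Epha5 rose. They were 3 of 48 guidance genes tested, 6.25%, where 322 of all 11406 genes passed, 2.82% (2.03% higher and 0.789% lower). The median log2 difference of the guidance genes was −0.05 (COP1 KO minus HET), against −0.00 over all genes. An unadjusted edgeR p under 0.05 was found for 11 of the 48, and for 1690 of all 11406 genes.

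Sema5a, a transmembrane semaphorin that can attract or repel, had 52.6 and 47.2 CPM in HET and 18.4 and 14.9 CPM in COP1 KO radial-glia-like cells. The groups did not overlap, and the log2 difference was −1.53 (SE 0.194, edgeR adjusted p = 0.00529). Efna5, a glycolipid-anchored ligand of EphA receptors, had 32.6 and 29.4 CPM in HET and 54.4 and 56.9 CPM in COP1 KO (0.89, SE 0.156, edgeR adjusted p = 0.0211). Its receptor Epha5 had 144 and 149 CPM in HET and 215 and 193 CPM in COP1 KO (0.53, SE 0.0969, edgeR adjusted p = 0.0252). Both COP1 KO libraries lay above both HET libraries for the ligand and for the receptor. Sema5a in COP1 KO radial-glia-like cells was below its level in intermediate-progenitor-like cells of the same libraries, 87.8 and 76.1 CPM, as it was in HET.

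These calls rest on few libraries. Without HET replicate 1 or 2, no guidance gene passed, with edgeR adjusted p of 0.0755 and 0.0598 for Sema5a, 0.118 and 0.211 for Efna5 and 0.249 and 0.210 for Epha5. Epha5 also missed the threshold without COP1 KO replicate 1. With any 1 library left out, the log2 difference was −1.71 to −1.36 for Sema5a, 0.816 to 0.968 for Efna5 and 0.421 to 0.627 for Epha5. Such fits leave 1 library in a genotype. With DESeq2, Sema5a passed (adjusted p = 0.00165) and Efna5 (0.127) and Epha5 (0.12) did not.

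The radial-glia-like class held a less dividing and a dividing cluster, and summed markers of dividing cells were lower in its COP1 KO libraries. Of 10 markers of dividing cells, 0 were higher in COP1 KO by the mean, with summed levels of 4316 and 3814 CPM in HET and 2920 and 3328 CPM in COP1 KO. In the whole library 10 of 10 were higher in COP1 KO, with 713 and 803 CPM in HET and 814 and 844 CPM in COP1 KO. Neither sum was tested. Sema5a passed in the less dividing cluster alone (−1.55, edgeR adjusted p = 0.00124) and in the dividing one alone (−1.61, edgeR adjusted p = 0.0114). Efna5 passed only in the dividing cluster (1.21, edgeR adjusted p = 0.0123, against 0.62, 0.227) and Epha5 only in the less dividing one (0.55, 0.0135, against 0.48, 0.102). Whether these effects differ between the clusters was not tested. The oligodendrocyte precursor markers summed to 194 and 188 CPM in HET and 247 and 260.5 CPM in COP1 KO radial-glia-like sums (6 of 9 higher), with Gpr17 at 0, and the upper-layer markers to 1105 and 1141 CPM against 1475 and 1199 CPM (5 of 10 higher). Choroid plexus markers summed to 30.9 to 51.6 CPM in 3 libraries and 214 CPM in COP1 KO replicate 2, with Kcne2 and Kl at 0. Erythroid markers summed to 4.209 and 4.005 CPM in HET and 159.9 and 12.3 CPM in COP1 KO (5 of 6 higher, Slc4a1 at 0), and intermediate progenitor markers to 1328 and 1424 CPM against 1217 and 1132 CPM (2 of 10 higher). The part of these in the results was not tested.

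The next genes by p missed the threshold in radial-glia-like cells. Ephb3 had 24.2 and 24.0 CPM in HET and 12.4 and 8.32 CPM in COP1 KO (−1.17, SE 0.269, edgeR adjusted p = 0.0629). Unc5d had 10.5 and 10.2 CPM in HET and 22.1 and 19.7 CPM in COP1 KO (1.05, SE 0.251, edgeR adjusted p = 0.0704). Epha4, the leading receptor of the class, had 272 and 246 CPM in HET and 200.0 and 176 CPM in COP1 KO (−0.41, SE 0.0998, edgeR adjusted p = 0.0741). The genotypes did not overlap in these 3 genes, but the genes were picked by smallest p, so this adds no support. Of the 74 other pathway genes, 67 were tested and 1 passed, where 2.82% of all genes did. Rgma, a ligand of the receptor neogenin (Neo1), fell from 125 and 119.7 CPM to 83.0 and 84.9 CPM (−0.49, SE 0.102, edgeR adjusted p = 0.0396).

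**Figure D4:**
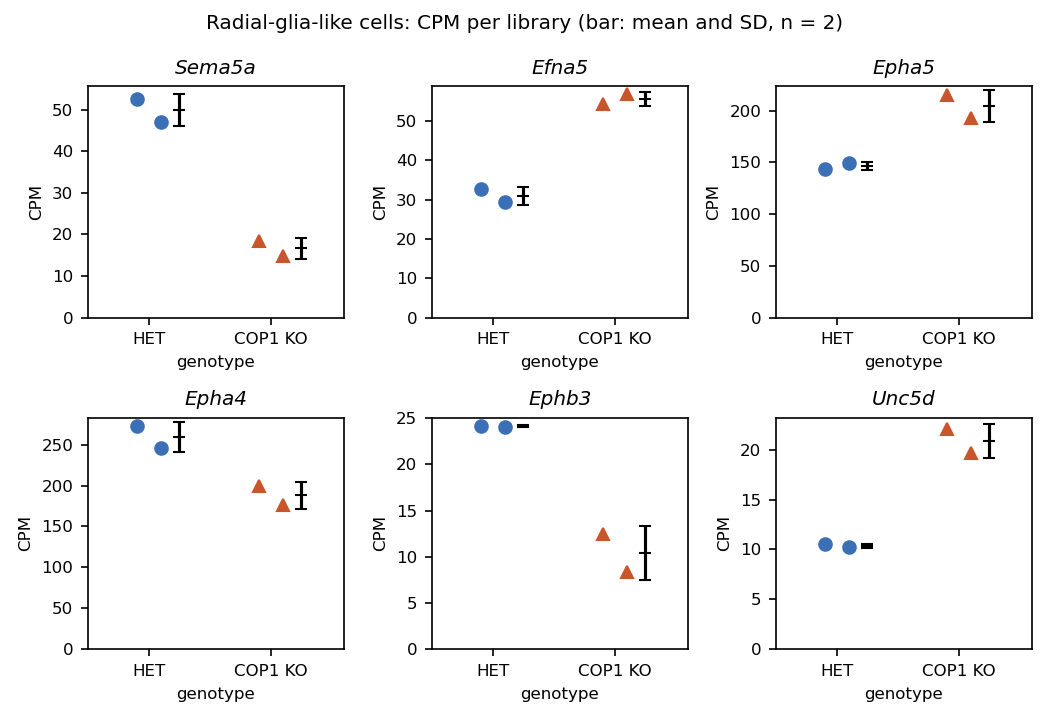
CPM in radial-glia-like cells by genotype for 6 guidance genes; each point is 1 library, and the black mark beside it is the mean with its SD (n = 2). Sema5a, Epha4 and Ephb3 lie lower and Efna5, Epha5 and Unc5d higher in both COP1 KO libraries; only Sema5a, Efna5 and Epha5 passed the test.

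The sequences before the start sites of the 3 genes that passed in radial-glia-like cells are shown because an ephrin and its receptor rose while a semaphorin fell in the same cells. Each line gives the 250 bases upstream of the RefSeq start on GRCm38.p6, 5′ to 3′ on the gene's own strand, with CpG dinucleotides in capitals. They lie at chr15:32244563-32244812 on the plus strand (Sema5a), chr17:62881318-62881567 on the minus strand (Efna5) and chr5:84417383-84417632 on the minus strand (Epha5).
Sema5a: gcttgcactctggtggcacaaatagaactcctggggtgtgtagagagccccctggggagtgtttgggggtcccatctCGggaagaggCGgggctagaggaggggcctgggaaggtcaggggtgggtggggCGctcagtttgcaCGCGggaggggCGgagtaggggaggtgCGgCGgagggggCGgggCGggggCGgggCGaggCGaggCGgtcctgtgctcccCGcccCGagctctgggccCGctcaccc
Efna5: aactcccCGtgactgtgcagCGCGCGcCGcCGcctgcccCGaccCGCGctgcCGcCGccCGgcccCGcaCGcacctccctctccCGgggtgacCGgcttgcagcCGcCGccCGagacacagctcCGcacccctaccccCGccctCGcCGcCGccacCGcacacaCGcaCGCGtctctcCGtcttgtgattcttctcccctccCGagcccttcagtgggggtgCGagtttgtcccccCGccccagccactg
Epha5: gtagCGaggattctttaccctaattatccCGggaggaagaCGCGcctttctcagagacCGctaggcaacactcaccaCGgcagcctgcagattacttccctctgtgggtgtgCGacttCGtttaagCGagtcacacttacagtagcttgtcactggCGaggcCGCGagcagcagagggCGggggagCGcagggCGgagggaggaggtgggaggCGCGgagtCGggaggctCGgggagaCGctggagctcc
They held 17, 32 and 20 CpG dinucleotides, against a median of 6 (quartiles 2 and 16) over 32851 mouse promoters of the same length. The letters of 3 factor motifs were searched on both strands: TGANTCA (AP-1), TGACGTCA (CRE), and CCGGAAG or CAGGAAG (ETS). None of the 3 windows, nor that of Epha3, held any of them, where 6.75%, 1.55%, 6.91% and 10.8% of all promoters did. No match says only that these letters are not in these windows. Of the 76 members, 65 had an entry among the promoter sequences.

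In eminence-progenitor-like cells 1 of 26 guidance genes tested passed, 3.85%, where 0.371% of all 8356 genes did. Epha3, a receptor of ephrin-As, had 144 and 138 CPM in HET and 78.9 and 68.2 CPM in COP1 KO (−0.90, SE 0.184, edgeR adjusted p = 0.0358). The groups did not overlap, but the gene was picked by its p on these same libraries, so this adds no support. Sema5b, named after its values were seen, had 56.6 and 56.9 CPM in HET and 17.7 and 27.8 CPM in COP1 KO and missed the threshold (−1.26, SE 0.298, edgeR adjusted p = 0.099). The class had 97 to 175 cells and 512048 to 792395 counts per library. The call was lost with DESeq2 (adjusted p = 1), without HET replicate 1 (edgeR adjusted p = 0.0555), HET replicate 2 (0.0508) or COP1 KO replicate 2 (0.0738), and in each of 3 other clusterings (0.0685 to 0.253). Erythroid markers were 3.91 and 5.42 CPM in HET and 229.8 and 219.6 CPM in COP1 KO sums of this class, with Slc4a1 at 0. Radial glia markers were 3371 and 3386 CPM in HET and 4685 and 3802 CPM in COP1 KO (12 of 16 higher), and Epha3 was at 26.0 CPM ± 4.87 (SD, n = 4) in radial-glia-like cells. Their part in the result was not tested.

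In the other classes no guidance gene passed. In the whole library 0 of 69 passed (12 with an unadjusted p under 0.05, and 0 with DESeq2), where 0.0061% of all genes did (unadjusted, 1707 of 16384). In excitatory-neuron-like cells 0 of 63 passed (11 unadjusted, 0 with DESeq2) and 0% of all genes (unadjusted, 1300 of 14048). In intermediate-progenitor-like cells 0 of 39 passed (4 unadjusted, 0 with DESeq2), where 0.201% of all genes did (unadjusted, 957 of 9948). In newborn-like, upper-layer-like, layer-5-like and layer-6-like neurons and clusters 3 and 7, 0 of 43 to 52 guidance genes passed (10, 11, 12, 4, 9 and 2 unadjusted, 0 with DESeq2 in each), where 0%, 0%, 0.138%, 0.11%, 0.00953% and 0.00931% of all genes did. Over all genes, the unadjusted counts were 812 of 9286, 1011 of 11241, 929 of 10896 and 910 of 10954 in the neurons named. In clusters 3 and 7 they were 987 of 10494 and 769 of 10743. In Cajal-Retzius-like, interneuron-like, striatal-like and oligodendrocyte-precursor-like cells, 0 of 22 to 49 passed (3, 4, 2 and 3 unadjusted, 0 with DESeq2 in each), where 0.0135%, 0.0312%, 0.0297% and 0.316% of all genes did. Over all genes, the unadjusted counts there were 466 of 7405, 597 of 9612, 639 of 10118 and 864 of 7922.

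In intermediate-progenitor-like cells the 3 genes with the smallest p were Nrp1, Sema3c and Efna5. Nrp1 had 108 and 100.4 CPM in HET and 58.8 and 48.6 CPM in COP1 KO (−0.90, SE 0.167, edgeR adjusted p = 0.0759). Its ligand Sema3c had 35.2 and 34.0 CPM in HET and 8.62 and 16.51 CPM in COP1 KO (−1.44, SE 0.317, edgeR adjusted p = 0.157). Efna5, which passed in radial-glia-like cells, had 18.8 and 33.2 CPM in HET and 54.9 and 58.7 CPM in COP1 KO (1.16, SE 0.257, edgeR adjusted p = 0.157). None of the 3 passed. Their genotypes did not overlap, but the genes were picked by smallest p, so this adds no support. Without COP1 KO replicate 1, Nrp1 passed in this class, without COP1 KO replicate 2, Sema3c, and without HET replicate 2, Nrp1 and Efna5. With the sex of the library as a covariate, Nrp1 and Efna5 passed in this class, and 2 guidance genes passed in newborn-like neurons.

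In excitatory-neuron-like cells the 3 genes with the smallest p were Nrp1, Robo1 and Epha5. Nrp1 had 453 and 459 CPM in HET and 379 and 371 CPM in COP1 KO (−0.26, SE 0.0445, edgeR adjusted p = 0.306). Robo1 had 94.5 and 96.0 CPM in HET and 107 and 113 CPM in COP1 KO (0.23, SE 0.0468, edgeR adjusted p = 0.361). Epha5 had 255 and 265 CPM in HET and 307 and 287 CPM in COP1 KO (0.22, SE 0.0571, edgeR adjusted p = 0.48). Nrp1 was lower in both COP1 KO libraries than in both HET libraries in 7 of 13 classes, which share the same 4 libraries, and was higher in both in 1, the eminence-progenitor-like class. Efna5 and Epha5 were higher in both COP1 KO libraries in 5 of 13 classes each. Guidance genes that passed in no class reached such counts too. Ephb3 was lower in both COP1 KO libraries in 10 classes, Efnb2 in 9, and Plxna4 was higher in both in 7. The share of all genes with such separation was not computed, so these counts do not show a genotype effect.

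**Figure D5:**
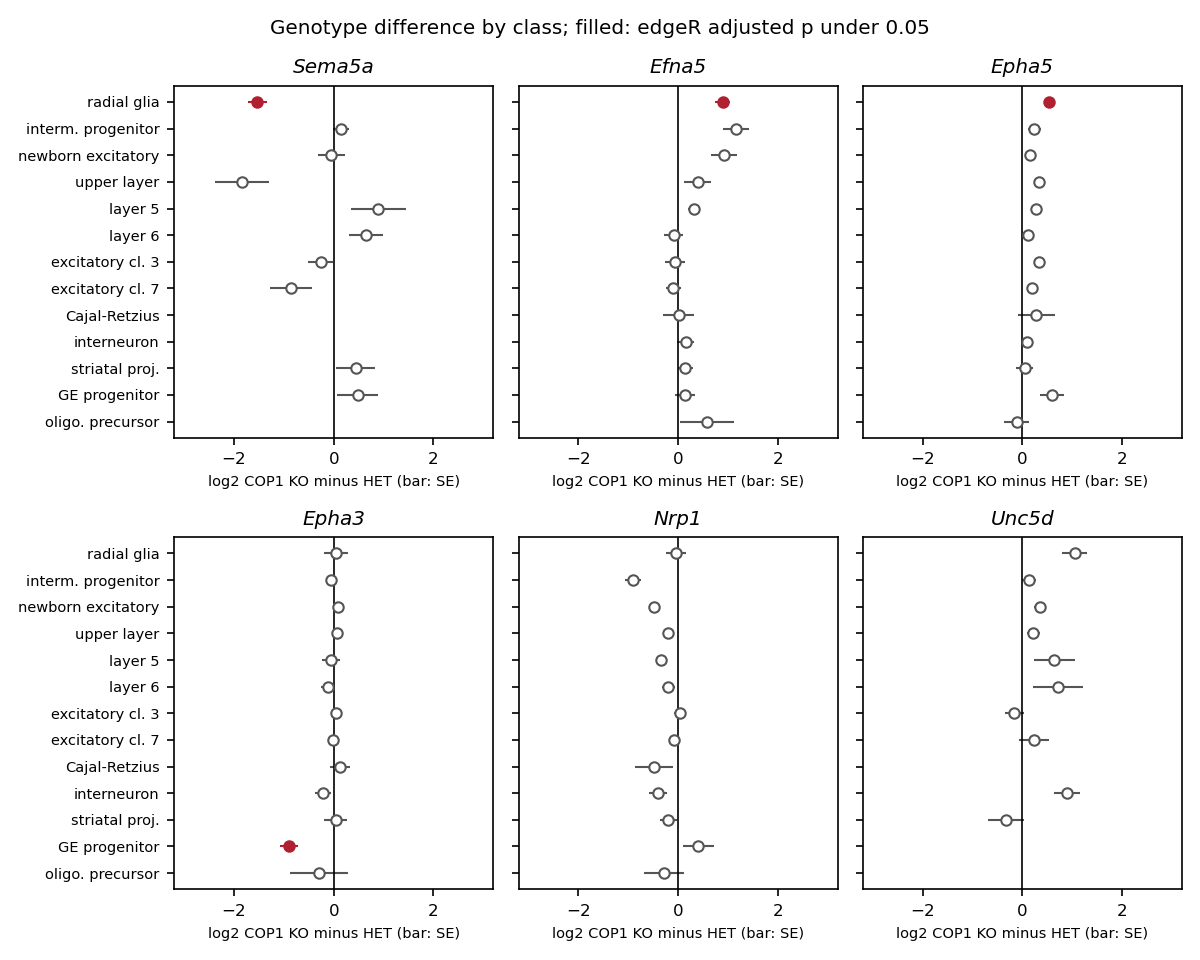
Log2 difference (COP1 KO minus HET) with its SE for 6 guidance genes in 13 classes; filled points passed the edgeR test, and a missing point was not tested there. Filled points are Sema5a, Efna5 and Epha5 in radial-glia-like cells and Epha3 in eminence-progenitor-like cells.

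Whether the genotype effect depends on the class was tested with a term for radial-glia-like against excitatory-neuron-like cells. It passed for 4 of 65 guidance genes, 6.15%, where 2.34% of all 14508 genes passed. Sema5a fell more in radial-glia-like cells (difference of log2 effects −1.38, edgeR adjusted p = 0.000696); in excitatory-neuron-like cells it had 9.80 and 9.50 CPM in HET and 7.75 and 9.39 CPM in COP1 KO. The terms of Efna5 (0.69, edgeR adjusted p = 0.0145) and Unc5d (0.93, edgeR adjusted p = 0.0428) were positive. That of Efnb1 was negative (−0.37, edgeR adjusted p = 0.016): it had 343 and 319 CPM in HET and 276 and 246 CPM in COP1 KO radial-glia-like cells, and 80.8 and 82.8 CPM against 89.1 and 81.2 CPM in excitatory-neuron-like cells. With a library left out, 1 or 2 guidance genes passed. Sema5a held without either HET library or COP1 KO replicate 1, and missed without COP1 KO replicate 2 (edgeR adjusted p = 0.0702).

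COP1 KO replicate 1 lay apart from the other libraries most often in a pair of ephrins, but in other guidance genes too. Among these, it was the lowest library for Unc5a in 11 of 13 classes, for Draxin and Efnb3 in 10 each and for Sema3c in 9. For Epha5 it was the highest library in 10 classes. Efna2 was highest in that library in 12 of 13 classes: it had 91.1 CPM there in upper-layer-like neurons against 38.7, 39.7 and 44.4 CPM in HET replicates 1 and 2 and COP1 KO replicate 2, and 41.5 CPM in radial-glia-like cells against 20.5, 22.2 and 18.4 CPM. Efnb2 was lowest in it in 12 of 13 classes, with 144 CPM in upper-layer-like neurons against 234, 251 and 213 CPM. COP1 KO replicate 2 was nevertheless below both HET libraries for Efnb2 in 9 classes. With replicate 1 as the only COP1 KO library, which assumes that it varies like the HET libraries, the test gave 10 of 70 guidance genes in the whole library (Efnb2, Efna2, Unc5a, Sema3c, Draxin, Sema3f, Epha5, Ephb3, Plxna2 and Efnb3), where 7.09% of all genes passed, and 8 of 63 in excitatory-neuron-like cells, where 6.63% did. With COP1 KO replicate 2 as the only one, the log2 difference of Nrp1 in the whole library was −0.34.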

How the data were processed

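Single-cell 3′ transcript libraries (papain dissociation, 10x Chromium v2 chemistry, per the labels' protocols) were aligned by the authors with GSNAP to GRCm38/mm10, per the submitters' processing notes. How genes were annotated and counted, identifiers collapsed and cells called was not stated in the labels or headers. Deposited files hold raw counts per gene and cell barcode, 4422 to 5354 barcodes and 28049007 to 28988265 counts per library. Such 3′ counts are not divided by gene length, and capture can differ between genes. Of 36528 rows, 3065 with a number in place of a symbol (1.69% of counts) and 24 identical copies (1.18%) were left out.

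Cells with under 500 genes (222), over 10% mitochondrial counts (1) or a doublet score above 0.25 (233) were removed. The automatic doublet call marked 11 cells (0.0579%) and was not relied on. Clustering used scanpy 1.11.5 with 2000 variable genes, 30 principal components and Leiden resolution 1.0, and gave 27 clusters. A cluster took a cell type's name at a marker score of at least 0.5 and a margin of 0.2 (0.3 between excitatory subtypes), with 3 markers in 10% of its cells; these limits were set after seeing the data. Counts were summed per library and class (at least 20 cells) and tested with edgeR 4.0.16 (R 4.3.3; quasi-likelihood, TMM scaling, Benjamini-Hochberg over all genes tested, threshold 0.05). Class contrasts had the library as a block, and genotype was fitted within each class on 2 against 2 libraries, where an exact permutation could not go below p = 0.333. Genes were named by rule: every guidance gene called for genotype, the 3 leading ligands and receptors of a class, the 4 largest called differences of each class contrast with 20 CPM in every library of the higher class, and the 3 smallest p of 3 main classes; others are named as examples chosen after their values were seen. DESeq2 1.42.0, other scalings, filters and clusterings were alternatives. The edgeR script was first tested on simulated data. The genes and lists were chosen with earlier results of these data known.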

Additional observations from a re-analysis of the deposited data

Results flagged for a closer look

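In a test of whether the genotype effect depends on the class, 4 guidance genes passed with edgeR. The log2 effect in radial-glia-like cells minus that in excitatory-neuron-like cells was −1.38 for Sema5a, 0.689 for Efna5, −0.372 for Efnb1 and 0.928 for Unc5d. With a library left out these calls were lost in 11 of 16 cases, and 1 or 2 guidance genes passed.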

How the results depend on the processing

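The 4 largest differences of each of the 6 class contrasts among called genes with 20 CPM or more in the higher class, 24 in all, kept direction and call in all 236 settings run; other genes named in those contrasts were not rerun singly. With a library left out, the called guidance genes numbered 33 to 35 (radial glia against intermediate progenitor), 41 to 44 (intermediate progenitor against excitatory), 34 to 38 (interneuron against excitatory), 26 to 30 (striatal against interneuron), 37 to 38 (eminence progenitor against interneuron) and 33 to 35 (upper against deep layers). With no replicate block for the library they numbered 31, 39, 36, 25, 39 and 34, in the same order. No paired analysis was possible because the labels give no replicate numbers; the numbers used here follow accession order and pair nothing.

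For genotype, no single gene reversed in 155 settings (111 kept their side of the threshold, 18 lost and 26 gained it). Of 16 settings for the class-by-genotype term of 4 genes, 11 lost the call. In radial-glia-like cells 3 guidance genes passed, against 1 with DESeq2, 5 with library totals alone, 6 with no filter on low counts and 6 with no doublet limit. In eminence-progenitor-like cells 1 passed, against 0 with DESeq2, with the guidance rows kept in the clustering, at Leiden resolution 1.5 and with no doublet limit, and 2 with no filter. In intermediate-progenitor-like cells 0 passed, against 2 with the sex of the library as a covariate, 2 with the guidance rows kept, 1 at resolution 1.5 and 1 with no doublet limit; in these clusterings newborn-like neurons fell into that class. With no filter, 2 passed in cluster 3, 5 in layer-5-like, 1 in layer-6-like and 2 in upper-layer-like neurons, and with sex as a covariate 2 passed in newborn-like neurons. With a library left out the counts ran from 0 to 10 in the whole library, 0 to 8 in excitatory-neuron-like, 0 to 7 in cluster 3, 0 to 2 in cluster 7, 0 to 7 in layer-5-like, 0 to 3 in layer-6-like, 0 to 6 in newborn-like, 0 to 8 in upper-layer-like, 0 to 2 in eminence-progenitor-like, 0 to 1 in interneuron-like, 0 to 2 in intermediate-progenitor-like, 0 to 6 in radial-glia-like and 0 to 2 in striatal-like cells, and from 1 to 2 for the class-by-genotype term. The cause of these changes was not tested. The share of all genes that passed is not set beside these counts, so they are no result about guidance genes in particular.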
